A study of Homo sapiens with 2 samples.

Results

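The progression of a cell through G1 is set by kinases that pair with D-, E- and A-type cyclins, and 10 genes that restrain this step were examined. CDKN1A (p21), CDKN1B (p27) and CDKN1C (p57) encode the CIP/KIP inhibitors, which bind cyclin-CDK2 complexes. CDKN2A (p16), CDKN2B (p15), CDKN2C (p18) and CDKN2D (p19) encode the INK4 inhibitors, which bind CDK4 and CDK6. RB1, RBL1 (p107) and RBL2 (p130) encode the pocket proteins, which hold E2F transcription factors and repress their target genes until CDKs phosphorylate them. The genes were chosen by name, 10 of the 23024 genes listed in the deposited tables. Of the 10, 8 had a value in both libraries, and CDKN2A and CDKN2B were listed in a single library each.

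The series holds 2 RNA sequencing libraries from A549, an established human lung adenocarcinoma line. The cells of one library had been stably transduced with ATOH8, a basic helix-loop-helix transcription factor, by retrovirus, and those of the other with the retroviral vector. Both were grown in DMEM with serum and differ, as far as the labels say, in the transduced insert alone. The labels do not say whether a clone or a pool was sequenced. With 1 library per group there is no spread between replicates, so no test was run and every difference below is between these 2 libraries. Read depth was not known, and the size of the counting error in each value could therefore not be estimated.

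Levels are in FPKM, fragment counts scaled for library size and for transcript length, which allows levels of different genes to be set side by side. Folds are log2(FPKM + 1) in ATOH8 cells minus the same in vector cells, less the median of that difference over genes averaging at least 5 FPKM (-0.36), and are called log2 folds relative to the median gene. A gene was called higher or lower where this value passed 1 or -1, a 2-fold difference. Of 12342 genes averaging at least 1 FPKM, 12.8% were called higher and 9.46% lower in ATOH8 cells. With the FPKM as deposited, without centring, these shares were 6.24% and 19%, and lower genes made up 75.2% of the called genes, against 42.5% after centring.

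ATOH8 was listed at 182 FPKM in ATOH8 cells and 0.786 FPKM in vector cells. The epithelial keratin gene KRT8 was at 2302 FPKM in ATOH8 cells and 2381 FPKM in vector cells, and the 6 epithelial markers summed to 5840 and 5849 FPKM in that order of libraries. CDH1 (E-cadherin) was at 54.1 FPKM in ATOH8 cells and 15.4 FPKM in vector cells, and KRT19 was at 0.0700 FPKM in ATOH8 cells and 0.219 FPKM in vector cells. Of 6 markers of stroma and endothelium, 6 were listed in ATOH8 cells, summing to 0.739 FPKM, and 3 in vector cells, summing to 0.748 FPKM. Of 6 blood cell markers, 4 were listed in ATOH8 cells, summing to 9.32 FPKM, and 2 in vector cells, summing to 1.18 FPKM. Nearly all of the blood sum was CD14 (9.14 FPKM in ATOH8 cells and 1.12 FPKM in vector cells). PTPRC was listed at 0.0111 FPKM in ATOH8 cells and not in vector cells, and CD3E in neither library. Of the 8 alveolar markers, ABCA3 alone passed a mean of 1 FPKM, at 12.02 FPKM in ATOH8 cells and 5.19 FPKM in vector cells. Both libraries therefore held KRT8 and CDH1, while KRT19 was near 0 and surfactant protein genes were below 1 FPKM or not listed. Mitochondrial transcripts, without MT-CO1, made up 24.2% of the summed FPKM in ATOH8 cells and 14.4% in vector cells, and the part of these transcripts and of the markers in the folds was not tested.

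CDKN1A stood far above the other members. Its protein p21 blocks CDK2 complexes and is a classic effector of G1 arrest. CDKN1A (ENSG00000124762, on the plus strand of chromosome 6 from 36676460 to 36687339, GRCh38) reached 194 FPKM in ATOH8 cells and 32.0 FPKM in vector cells, a 6.06-fold ratio. Its log2 fold relative to the median gene was 2.92, rank 39 among the 12342 genes, and its gain of 162 FPKM was the 57th largest of all genes. The gene moved to percentile 98.7 of the genes listed in the ATOH8 library, against percentile 88.6 in the vector library. In the authors' deposited table it is among the genes marked up (q-value 0.00018), beside 4.33% of all genes; with 1 library per group that q-value compares libraries, not conditions. The 4.33%, like each share given for that table, is of the 18812 genes with a value in both libraries, with no filter on level. DINOL, a noncoding gene that GENCODE places inside the CDKN1A gene (36677609 to 36678559) on the opposite strand, was listed in neither library.

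CDKN1B showed a much smaller difference. Its product p27 is known to be controlled to a large part by protein turnover. CDKN1B (chromosome 12, 12715058 to 12722371, plus strand) was at 28.1 FPKM in ATOH8 cells and 22.3 FPKM in vector cells, a ratio of 1.26 and a log2 fold of 0.68 relative to the median gene. It was not called and was not in the authors' deposited table. CDKN1C (chromosome 11, 2883213 to 2885773, minus strand), the imprinted member of the family, was at 1.99 FPKM in ATOH8 cells and 0.464 FPKM in vector cells, a 4.29-fold ratio at a low level. Its log2 fold relative to the median gene was 1.39, damped by the pseudocount of 1, and it was also marked up in the authors' deposited table (q-value 0.00414). CDKN1C reached the mean of 1 FPKM only through the ATOH8 library, so its call could not have gone the other way.

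The promoters of CDKN1A and CDKN1B are shown because these 2 abundant CIP/KIP genes parted in the data and because proteins of the ATOH8 class bind E-boxes, CANNTG. The windows are RefSeq's (GRCh38.p14), 250 bases before to 50 after an annotated start, 5′ to 3′ on the gene's strand, with each E-box in capitals. They cover chr6:36678464-36678763 (plus strand) for CDKN1A and chr12:12717118-12717417 (plus strand) for CDKN1B.
CDKN1A: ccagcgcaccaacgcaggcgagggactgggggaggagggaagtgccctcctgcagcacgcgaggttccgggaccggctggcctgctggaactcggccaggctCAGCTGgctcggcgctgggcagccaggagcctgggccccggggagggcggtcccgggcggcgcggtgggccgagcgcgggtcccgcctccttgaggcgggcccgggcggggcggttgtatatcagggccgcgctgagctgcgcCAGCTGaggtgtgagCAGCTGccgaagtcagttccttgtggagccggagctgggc
CDKN1B: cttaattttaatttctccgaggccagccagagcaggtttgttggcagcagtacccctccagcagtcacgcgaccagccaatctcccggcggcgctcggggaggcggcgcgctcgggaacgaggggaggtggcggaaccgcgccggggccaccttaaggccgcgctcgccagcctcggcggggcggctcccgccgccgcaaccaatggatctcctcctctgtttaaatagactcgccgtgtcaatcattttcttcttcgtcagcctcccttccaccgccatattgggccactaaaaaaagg
The CDKN1A window held 3 E-boxes, all of them CAGCTG, whose first bases lie at -148, -5 and 11 counted from the start, and the CDKN1B window held 0. The CDKN1A window also held 4 GC boxes (GGGCGG on either strand, 2 of them sharing 1 base), and the CDKN1B window 1. E-boxes are common: 68.7% of 35116 RefSeq windows hold at least 1, and 10 of the 13 windows of the 9 members in the table did. A GC box was in 8 of these 13 windows and in 44.95% of all windows. RBL1, the pocket protein gene called lower, had 2 E-boxes in its window, CAGCTG at -37 and CAGGTG at -9. RBL2, which was not called, had 0 and 4 in its windows. Whether E-boxes bear on the folds was not tested. These matches are letters in a window and not sites of binding.

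**Figure D1:**
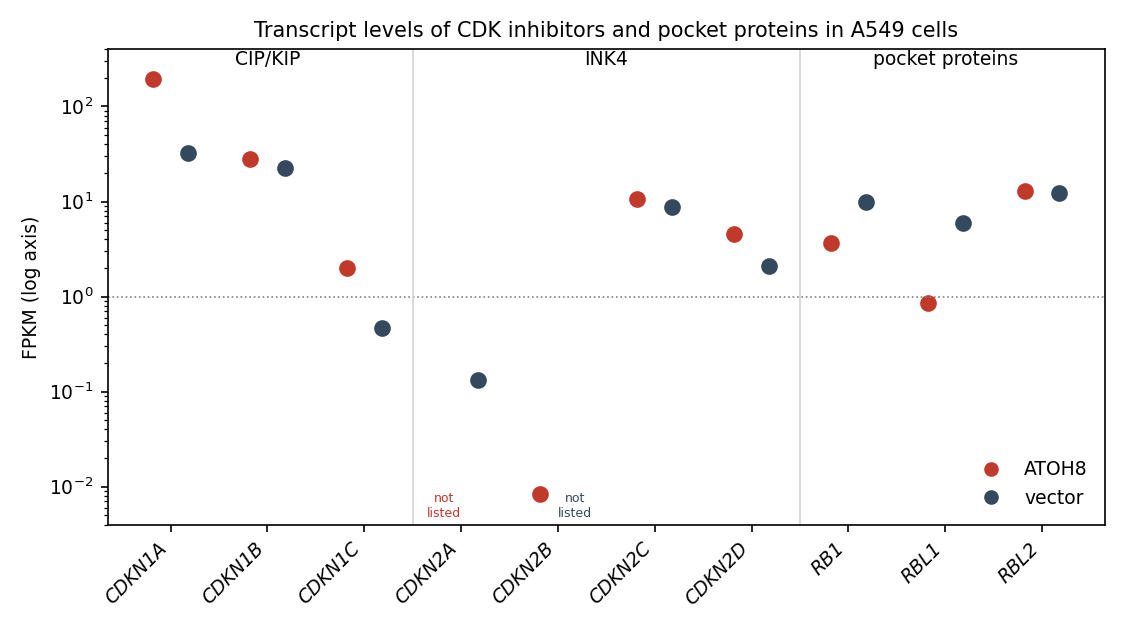
FPKM of the 10 genes on a log axis, ATOH8 (red) left of vector (dark) for each gene, 1 library each; the dotted line marks 1 FPKM. CDKN1A is highest at 194 FPKM in ATOH8 cells against 32.0 FPKM in vector cells, RBL1 has the largest drop on this log axis (0.855 and 5.88 FPKM), and CDKN2A and CDKN2B each lack a value in a library.

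Within each library, the CIP/KIP transcripts summed to 224 FPKM in ATOH8 cells and 54.7 FPKM in vector cells. CDKN1A made up 86.6% of that sum in ATOH8 cells and 58.5% in vector cells, and CDKN1B 12.5% and 40.7% in the same order. CDKN1A thus stood 6.90-fold above CDKN1B in ATOH8 cells and 1.44-fold above it in vector cells. Such ratios within a library do not depend on the centring, but they carry no correction for GC content. CDK2, the kinase that these inhibitors bind, was at 13.1 FPKM in ATOH8 cells and 33.6 FPKM in vector cells (-0.93 relative to the median gene). The CIP/KIP sum per CDK2 transcript level was 17.1 in ATOH8 cells and 1.63 in vector cells, a 10.5-fold difference. Both the higher CDKN1A and the lower CDK2 entered that ratio.

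Of the INK4 genes, 2 had a value in both libraries and 2 in a single library. CDKN2C (chromosome 1, 50960745 to 50974633, plus strand), which encodes p18, was at 10.5 FPKM in ATOH8 cells and 8.75 FPKM in vector cells, a log2 fold of 0.60 relative to the median gene. CDKN2D (chromosome 19, 10566462 to 10569059, minus strand), which encodes p19, was at 4.59 FPKM in ATOH8 cells and 2.12 FPKM in vector cells. Its log2 fold was 1.20 relative to the median gene and 0.84 with the FPKM as deposited, so it was called higher after centring and not as deposited. Neither gene was in the authors' deposited table. CDKN2C made up 69.6% of the sum of these 2 genes in ATOH8 cells and 80.5% in vector cells. Their targets CDK4 and CDK6 stayed near the median gene: CDK4 was at 51.2 FPKM in ATOH8 cells and 65.2 FPKM in vector cells (0.02), and CDK6 at 3.31 and 5.08 FPKM (-0.14). The sum of CDKN2C and CDKN2D over that of CDK4 and CDK6 was 0.277 in ATOH8 cells and 0.155 in vector cells.

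CDKN2A and CDKN2B lie side by side on chromosome 9 (21967753 to 21995301 and 22002903 to 22009363, both minus strand), a stretch that A549 cells are known to have lost. CDKN2A was listed at 0.131 FPKM in vector cells and not in ATOH8 cells, and CDKN2B at 0.00844 FPKM in ATOH8 cells and not in vector cells. A gene that is not listed may lack an estimate, so these absences were not read as 0 and no fold was formed. Genes on both sides of the pair were expressed in both libraries. Toward the telomere, FOCAD was at 12.9 FPKM in each library, and MLLT3 was at 4.75 FPKM in ATOH8 cells and 12.3 FPKM in vector cells. KLHL9 was at 4.75 FPKM in ATOH8 cells and 9.14 FPKM in vector cells, and the noncoding MIR31HG at 4.99 and 3.54 FPKM. Closer in, MTAP, the adjacent gene of methionine salvage, was at 1.34 FPKM in ATOH8 cells and 0.573 FPKM in vector cells, and CDKN2B-AS1, the antisense RNA of the locus, was listed in neither. On the other side DMRTA1 was at 0.148 FPKM in ATOH8 cells and 0.247 FPKM in vector cells, and TUSC1 at 2.24 and 1.08 FPKM. Between them ELAVL2 was at 0.0216 FPKM in ATOH8 cells and 0.0927 FPKM in vector cells. The files give MTAP, CDKN2A, CDKN2B and AL359922.1 a single joint locus. AL359922.1, a coding model that GENCODE draws from MTAP across CDKN2A and CDKN2B (chromosome 9, 21802636 to 22032986, plus strand), was at 2.96 FPKM in ATOH8 cells and 4.64 FPKM in vector cells. Reads of this locus could be split among these models, so the 9p21 values of MTAP, CDKN2A and CDKN2B are uncertain.

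The 3 pocket protein genes went different ways. RBL1 (chromosome 20, 36996349 to 37095995, minus strand) was at 0.855 FPKM in ATOH8 cells and 5.88 FPKM in vector cells, 6.88-fold lower in ATOH8 cells by the plain ratio. It reached the mean of 1 FPKM only through the vector library, so its call could not have been higher. Its log2 fold relative to the median gene was -1.53, with 2.35% of the tested genes lower still (rank 12052 of 12342), and the authors' deposited table lists it as down (q-value 0.003), beside 10.2% of all genes. RB1 (chromosome 13, 48303726 to 48599436, plus strand) was at 3.69 FPKM in ATOH8 cells and 9.84 FPKM in vector cells, a log2 fold of -0.85 relative to the median gene and -1.21 as deposited. RB1 was not called after centring with a pseudocount of 1, but was called lower as deposited and, after centring, with a pseudocount of 0.1 (-1.01). It was not in the authors' deposited table. RBL2 (chromosome 16, 53433977 to 53491649, plus strand) was at 13.0 FPKM in ATOH8 cells and 12.4 FPKM in vector cells, 0.42 relative to the median gene.

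The balance among the pocket proteins shifted accordingly. RBL2 made up 74.1% of the summed pocket protein FPKM in ATOH8 cells and 44.1% in vector cells. RB1 made up 21.1% in ATOH8 cells and 35% in vector cells, and RBL1 4.88% and 20.9%. RBL2 stood 15.2-fold above RBL1 in ATOH8 cells and 2.11-fold above it in vector cells. These shares and ratios carry no correction for GC content. After the GC correction given below, the log2 folds were -0.19 for RB1, -1.02 for RBL1 and 0.68 for RBL2. As background, p130 is the pocket protein typical of resting cells and p107 that of cycling cells. The sum of all 3 was 17.5 FPKM in ATOH8 cells and 28.1 FPKM in vector cells. The sum of the activator genes E2F1, E2F2 and E2F3 was lower by more, at 9.77 FPKM in ATOH8 cells and 28.97 FPKM in vector cells. The pocket to activator E2F ratio was therefore 1.79 in ATOH8 cells and 0.971 in vector cells. RB1 shares its file locus with LPAR6, which lies inside it on the opposite strand (0.543 FPKM in ATOH8 cells and 1.83 FPKM in vector cells), and RBL2 with AKTIP (8.23 and 17.0 FPKM). Reads of such partners may not have been separated, since the strand setting is not known.

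**Figure D2:**
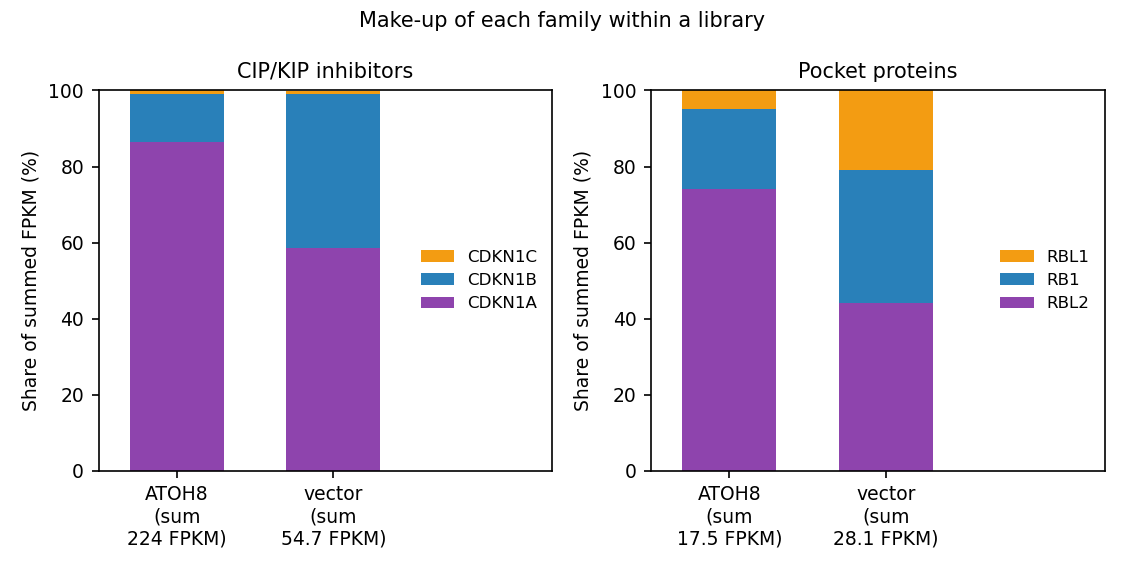
Stacked bars of each gene's share (%) of its family's summed FPKM, ATOH8 left of vector, 1 library each. CDKN1A fills 86.6% of the CIP/KIP bar in ATOH8 cells and 58.5% in vector cells, and RBL2 fills 74.1% of the pocket protein bar in ATOH8 cells and 44.1% in vector cells.

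The promoter of RBL1 is shown because it was the pocket protein gene called lower and because RBL1 is known as a target of E2F itself. The RefSeq window (GRCh38.p14) covers chr20:37095948-37096247 on the minus strand, and capitals mark the E2F motif.
RBL1: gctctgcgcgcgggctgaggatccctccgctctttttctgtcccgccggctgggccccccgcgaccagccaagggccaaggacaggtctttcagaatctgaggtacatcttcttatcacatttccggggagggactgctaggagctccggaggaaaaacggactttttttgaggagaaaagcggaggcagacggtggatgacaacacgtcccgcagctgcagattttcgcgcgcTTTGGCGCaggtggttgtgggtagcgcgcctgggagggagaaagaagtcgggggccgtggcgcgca
Of the letters searched on both strands for E2F (TTTCCCGC or TTTGGCGC), this window held 1 match, TTTGGCGC at -16, which shares 1 base with an E-box at -9. Such a match was in 2.27% of all 35116 windows and in 1 of the 13 member windows. Other letters, such as the TTTCGCGC just upstream of the match in RBL1, were not searched. The motif CHR, TTTGAA, which the MuvB complex is known to bind, was in 1 member window, of RBL2, and in 15.2% of all windows, and TATAAA was in 0 member windows and in 11.5% of all. No match says only that these letters are not in the window. The RefSeq window listed for RB1 (chr13:48476200-48476499) lies at a start inside the gene and not at its upstream end.

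Counted together, 3 of the 8 measured genes were called higher, CDKN1A, CDKN1C and CDKN2D, beside 12.8% of all genes, and 1 was called lower, RBL1, beside 9.46%. CDKN1C and RBL1 each reached the mean of 1 FPKM through a single library, so these counts are a description and no support for a shared direction. All 5 measured inhibitors lay above the median gene, by 0.60 to 2.92, beside 52.99% of all tested genes. They were also above 0 as deposited (0.24 to 2.56), beside 35.3% of all. CDKN1C is among these 5, and its direction was set by the filter, so this count is likewise only a description. The median of the 8 was 0.64, beside 0.06 over all tested genes. The folds of all genes followed base composition, with a Spearman correlation of 0.55 across 12309 genes, which are not independent. The GC content of the longest transcript was 37.3% for RB1, 40.0% for RBL1, 43.2% for RBL2, 47.7% for CDKN1B, 58.1% for CDKN1A and CDKN2C, 61.3% for CDKN2D and 63.8% for CDKN1C. Genes in the same decile of GC content had a median of -0.70 for RB1, -0.52 for RBL1, -0.36 for RBL2, 0.04 for CDKN1B, 0.42 for CDKN1A and CDKN2C, 0.54 for CDKN2D and 0.63 for CDKN1C. RB1 and RBL1 lay below the median of their decile, and the other 6 members above it. After a GC correction CDKN1A stood at 2.44 and RBL1 at -1.02, both still called, beside 8.33% of all genes called higher and 5.95% lower. CDKN1C (0.77), CDKN2D (0.63) and RB1 (-0.19) were not called after it. CDKN1B (0.61), RBL2 (0.68) and CDKN2C (0.11) were not called with or without it. The part of base composition in the folds was not tested beyond this.

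**Figure D3:**
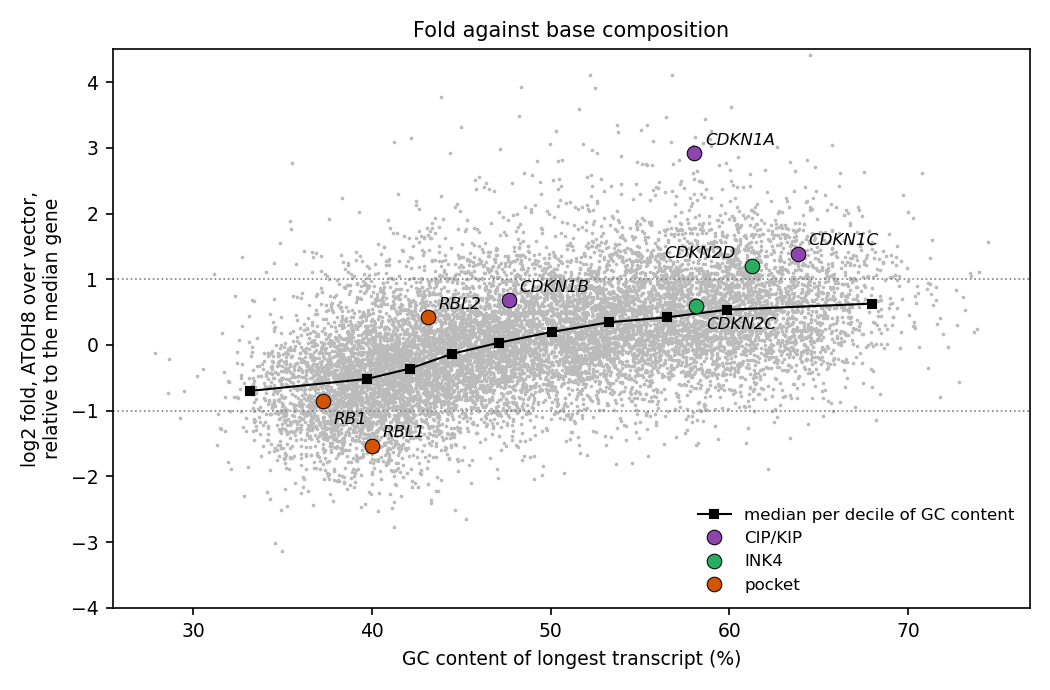
Log2 fold, ATOH8 over vector, relative to the median gene (vertical axis) against GC content in percent of the longest transcript (horizontal axis) for all tested genes (grey), the median per decile of GC content at its mid-range (black squares) and the 8 members (coloured by family); 4 genes lie outside the plotted range. CDKN1A (2.92) stands above and RBL1 (-1.53) below the medians of their GC neighbours (0.42 and -0.52), and RB1 (-0.85) lies near its own (-0.70).

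The kinase and cyclin partners of the inhibitors lay at or below the median gene. Of 8 G1 cyclin and kinase genes averaging at least 1 FPKM, 0 were called higher and 1 (12.5%) lower (median -0.27). The share called lower was near the 9.46% of all genes. The called gene was CCNA2, cyclin A2, at 10.0 FPKM in ATOH8 cells and 32.6 FPKM in vector cells (-1.25). The D-type cyclin genes CCND1 (-0.38) and CCND3 (-0.16) and the E-type cyclin genes CCNE1 (-0.14) and CCNE2 (-0.74) were not called, and CCND2 was near 0 in both libraries. After the GC correction CDK2 (-1.19) was the gene called lower and CCNA2 (-0.90) was not. CDKN1A was 4.57-fold above CCND1 in ATOH8 cells and 0.448-fold of it in vector cells. Of 9 other genes that set CDK activity, 4 were called lower, beside 9.46% of all genes, and 0 higher. These were CCNH (7.91 FPKM in ATOH8 cells and 35.6 FPKM in vector cells, -1.68) and MNAT1 (-1.19), partners of CDK7 in the CDK-activating kinase, CDC25A (0.85 and 6.45 FPKM, -1.65), the phosphatase that activates CDK2, and CDKN3 (-1.21), a phosphatase that acts on CDKs. After the GC correction CCNH (-0.94) and MNAT1 (-0.50) were not called, while PKMYT1 was called lower (-1.53, and -0.86 before it).

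Genes linked to breakdown of the CIP/KIP proteins, in a list that also holds relatives such as CKS2, were lower as far as they were called. Of 18, 4 were called lower, beside 9.46% of all genes, and 0 higher (median -0.57). DTL, the receptor of the CUL4 ligase that targets p21 on PCNA, was at 3.72 FPKM in ATOH8 cells and 18.6 FPKM in vector cells (-1.70), and PCNA at 108.6 and 300.6 FPKM (-1.10). The others were CUL1 (-1.27), the scaffold of the SCF ligase, and CKS2 (-1.10), which was not called after the GC correction (-0.69). The p27 receptor SKP2 was at 3.86 FPKM in ATOH8 cells and 9.0 FPKM in vector cells (-0.68), and its cofactor CKS1B at 129.9 and 228 FPKM (-0.45), both not called. Without centring 9 of the 18 genes were called lower, beside 19% of all genes, and SKP2 (-1.04) was among them. CDKN1B stood 7.27-fold above SKP2 in ATOH8 cells and 2.47-fold above it in vector cells.

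Genes of the E2F and DP family and of the MuvB complex lay mostly below the median gene, while the corepressors of pocket proteins were divided. The family was counted whole, whether or not a member binds pocket proteins. Of 10 E2F and DP genes, all 10 lay below it, beside 47.0% of all tested genes (median -0.67). Of them 2 were called lower, beside 9.46% of all genes, and 0 higher. E2F1, the classic activator held by pRB, was at 5.52 FPKM in ATOH8 cells and 17.9 FPKM in vector cells (-1.18), and E2F6 at 5.51 and 16.1 FPKM (-1.03). The GC correction kept the call of E2F1 (-1.77), ended that of E2F6 (-0.89) and put E2F4 and E2F2 past it (-1.03 and -1.08). E2F4, the usual partner of p130, was at 18.4 FPKM in ATOH8 cells and 34.4 FPKM in vector cells (-0.51). The MuvB core forms the repressive DREAM complex with p107 or p130. Of 8 genes of this core and of its activators, 2 were called lower, beside 9.46% of all genes, and 0 higher. LIN9 and LIN54 reached the mean of 1 FPKM only through the vector library, as did CDC25A. LIN9 was at 0.74 FPKM in ATOH8 cells and 5.55 FPKM in vector cells (-1.55) and LIN54, the DNA-binding subunit, at 0.882 and 3.93 FPKM (-1.03). LIN37 (0.57) and LIN52 (-0.57), further subunits, and the activators MYBL2 (-0.94) and FOXM1 (-0.54) were not called. With the GC correction LIN54 (-0.45) was no longer called and MYBL2 (-1.50) was. Of 16 corepressor genes that pocket proteins recruit, 9 lay below the median gene and 7 above (median -0.10). Of these 16, 0 were called higher and 3 lower, beside 9.46% of all genes called lower. Those called lower were the histone methyltransferase gene SUV39H2 (2.09 and 13.9 FPKM in ATOH8 and vector cells, -1.91), the deacetylase gene HDAC2 (-1.46, and -0.84 after the GC correction) and the DNA methyltransferase gene DNMT1 (-1.28). The GC correction put SUV39H1 past the line (-1.07, and -0.60 before it).

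Genes that the pocket proteins are known to repress were largely lower in ATOH8 cells, beside 9.46% of all genes called lower. Of 28 G1/S targets of RB and E2F, 17 (60.7%) were called lower and 0 higher, with a median of -1.12. CDC6, which loads the replicative helicase, was at 3.94 FPKM in ATOH8 cells and 26.1 FPKM in vector cells (-2.10). MCM6, a helicase subunit, followed at -1.77. Of 28 G2/M targets of DREAM, 14 (50%) were called lower and 0 higher, with a median of -1.02. The lowest were PBK (-2.52), ECT2 (-2.06), TTK (-1.82) and ASPM (-1.77). After the GC correction 21 of the G1/S targets and 8 of the G2/M targets were called lower, beside 5.95% of all genes. The authors' deposited table lists 19 of the G1/S and 17 of the G2/M targets as down and 0 as up. Of the 18812 genes with a value in both libraries, 10.2% were marked down. That share includes genes averaging below 1 FPKM, which these lists do not hold, so the 2 are not on a like footing. The lists overlap, so the counts are not separate results. Among the genes called lower above, PCNA, CDC25A and E2F1 are also G1/S targets here, and CCNA2 and CKS2 are also G2/M targets.

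**Figure D4:**
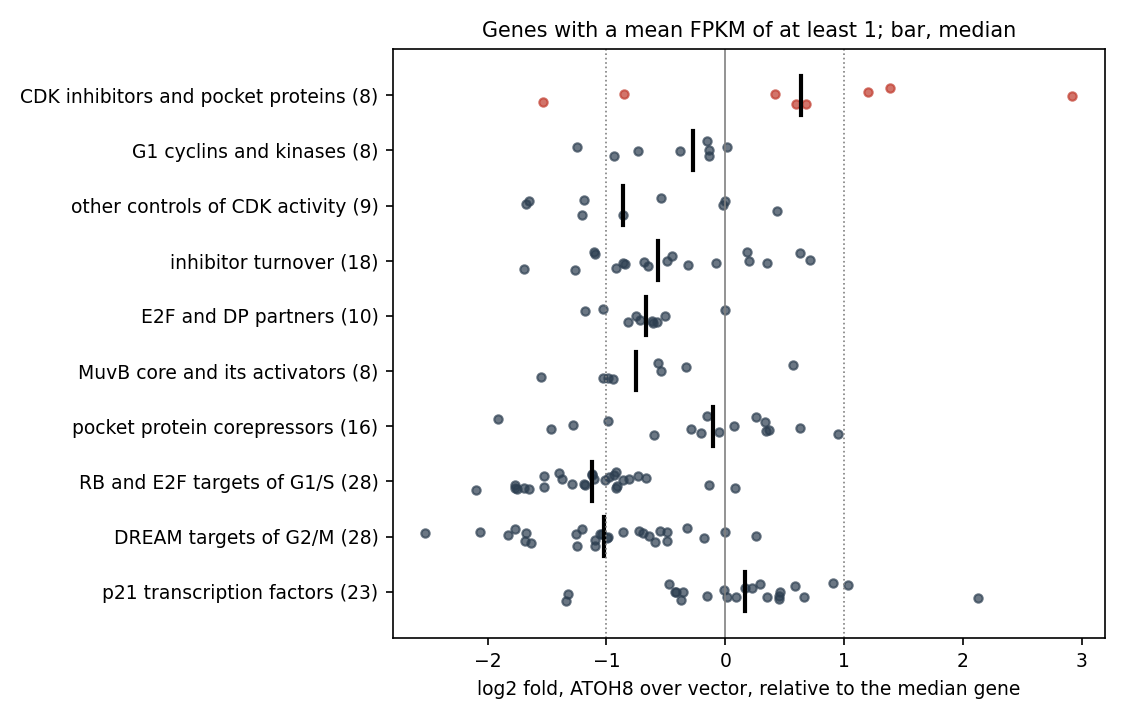
Log2 fold, ATOH8 over vector, relative to the median gene for each gene averaging at least 1 FPKM (points) and the median (bar) in the CDK inhibitor and pocket protein set and 9 related lists, with the number of genes in parentheses. The inhibitors spread to 2.92, while the medians of the G1/S and G2/M targets lie at -1.12 and -1.02.

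The known regulators of CDKN1A were mixed. Of 23 genes for factors known to act on the CDKN1A promoter, 2 were called higher and 2 lower (median 0.16). The shares over all genes were 12.8% higher and 9.46% lower. TP63, a transcription factor gene of basal epithelia, was at 10.2 FPKM in ATOH8 cells and 2.30 FPKM in vector cells (2.13, and 2.45 after the GC correction). RUNX1 (1.03) was the other higher gene, and BRCA1 (-1.34) and SP3 (-1.32) were the lower ones. After the GC correction RUNX1 (0.99), BRCA1 (-0.97) and SP3 (-0.75) were not called.

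The genes around CDKN1A on chromosome 6 did not share its fold. Of 10 neighbours averaging at least 1 FPKM, 2 were called higher, beside 12.8% of all genes, and 1 lower, beside 9.46%. The higher genes were C6orf89 (1.04) and the kinase gene PIM1 (1.14), and the lower was the splicing factor gene SRSF3 (-1.27). With the FPKM as deposited 0 were called higher, and after the GC correction 0 were called in either direction. SRSF3 (36594353 to 36605600) was at 33.7 FPKM in ATOH8 cells and 106.1 FPKM in vector cells. PANDAR, a noncoding gene upstream of CDKN1A, was listed in neither library. Around CDKN1C on chromosome 11, 3 of 8 neighbours were called higher, beside 12.8% of all genes, and 0 lower. After the GC correction 2 were called higher and 1 lower, beside 8.33% and 5.95% of all genes. The transporter gene SLC22A18 (2899721 to 2925246, plus strand), which shares its imprinted domain, was at 76.1 FPKM in ATOH8 cells and 18.7 FPKM in vector cells (2.33, and 1.74 after the GC correction). OSBPL5 was at 8.41 FPKM in ATOH8 cells and 2.86 FPKM in vector cells (1.64) and CD81 at 188 and 108.5 FPKM (1.15, and 0.50 after the GC correction). H19, a maternally expressed noncoding RNA of a neighbouring domain, was at 0.811 FPKM in ATOH8 cells and 2.96 FPKM in vector cells (-0.77, -1.13 as deposited and -1.38 after the GC correction). PHLDA2, which lies in the domain of CDKN1C and SLC22A18, was at 13.2 FPKM in ATOH8 cells and 15.4 FPKM in vector cells (0.15). KCNQ1OT1, the RNA that silences the paternal copy of this domain, was listed at 0.0186 FPKM in ATOH8 cells and 0.0221 FPKM in vector cells.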

How the data were processed

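RNA was taken from 1 culture of A549 cells transduced with ATOH8 and 1 transduced with vector, and libraries were made from total RNA, per the labels' protocols. Per the submitters' processing notes the tools were Cufflinks 2.2.1, HISAT2 and CASAVA, with genome build GRCh38 (hg38); annotation, strandedness and depth were not given in the sources used here. The authors deposited FPKM per gene and library, per the file headers. They also deposited a table of 2747 genes with p-value, q-value and log2 ratio, whose test is not given in the sources used here. Another 2 columns there hold per-library values under names that fit no label, and were left out.

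The tables were joined by gene identifier, rows of a shared symbol were summed (18786 genes), and a gene missing from a table was not read as 0. Folds used a pseudocount of 1, so changes of low genes are understated, and were centred on the median gene; genes averaging at least 1 FPKM were kept. For the GC correction, a lowess fit (fraction 0.3) of the fold against GC content of the longest GENCODE 29 transcript was taken off. Gene positions are those of GENCODE 29. Fold and correction were tested on simulated data. No test between groups was possible with 1 library each. Named genes were the members, fixed partners of theirs, up to 4 genes per list with the largest absolute fold, and neighbours in 3 intervals. A few of these genes and 1 list are left unreported. The members, lists and rules were chosen with earlier results of these data known. Python 3.11.15, pandas 2.3.3 and statsmodels 0.14.6 were used.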

Additional observations from a re-analysis of the deposited data

How the results depend on the processing

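No paired analysis was possible because each group has 1 library, and for the same reason no replicate could be left out. The counts of members moved with the setting, from 3 higher and 1 lower. With a pseudocount of 5, 1 member was called higher and 0 lower, and 636 genes were called higher and 524 lower. With a mean FPKM of at least 5, which CDKN1C, CDKN2D and RBL1 do not reach, 1 member was called higher and 0 lower, and 947 genes were called higher. A pseudocount of 0.1 gave 2 members called lower. With the FPKM as deposited 2 members were called lower, and 770 genes were called higher and 2340 lower; TPM without centring gave 2 members and 2288 genes called lower, with lower genes making up 67.7% of the called ones. The GC correction left 1 member called higher, and 1025 genes called higher and 732 lower. CDKN1A was called higher in all 9 alternatives, at 2.44 to 2.98. RBL1 was called lower in 7 of the 8 that kept it, the exception being a pseudocount of 5 (-0.61). No member changed sign in the alternatives run.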
